A study of Homo sapiens with 16 samples.

Results

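Mitosis genes were followed in HCT116 and RKO, a pair of human colon cancer cell lines, after treatment with drugs that act on chromatin. The list held 40 genes of mitotic entry, the spindle assembly checkpoint, anaphase, the kinetochore, the spindle and cytokinesis. Each was found by its gene symbol on the array platform and read at the probe set (a group of array probes for 1 transcript) with the highest mean signal over all arrays. All 40 were found among 19775 named genes, with 77 probe sets between them. The lowest signal of any of the 40 genes in any array was 320 (CENPE, in HCT116), so all 40 passed the filter on dim probe sets, a signal of 100 or more in at least 4 arrays.

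Most of these genes are transcribed late in the cell cycle. Cyclin B bound to the kinase CDK1 drives entry into mitosis, the checkpoint proteins hold the cell until every kinetochore is attached to the spindle, and the anaphase-promoting complex with its activator CDC20 then marks cyclin B and securin for destruction. In resting cells and after p53 activation many of their promoters are held silent by the DREAM complex, which binds the cell cycle homology region. NF-Y, which binds CCAAT boxes, drives many of the same promoters in dividing cells. High levels of these transcripts are a common sign of proliferation in tumours.

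Total RNA of each line was hybridised to 8 arrays after 3 days of treatment, 1 array for each of PJ-34/5-aza-dC/TSA, 5-aza-dC/TSA, PJ-34/TSA, PJ-34/5-aza-dC, TSA, 5-aza-dC, PJ-34 and an untreated control. PJ-34 inhibits poly(ADP-ribose) polymerase, 5-aza-dC (decitabine) traps DNA methyltransferases and so lowers DNA methylation, and TSA (trichostatin A) inhibits histone deacetylases. TSA was added at 150 nM and 5-aza-dC at 0.5 µM in both lines, and PJ-34 at 3 µM in HCT116. For RKO the sources used here give PJ-34 as 2 µM in one place and 3 µM in another. With 1 array per combination there were no replicates. Each drug was therefore read as the mean of the 4 arrays with it minus the mean of the 4 without it, on the log2 scale with signals under 50 set to 50, and the spread came from what the 3 added drug effects left over in limma. These p-values rest on that remainder between single arrays, not on replicates. In the fits per line the remainder holds any drug interaction as well as noise. A change in the share of cells in mitosis and a change in RNA per cell cannot be told apart in such bulk samples.

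The arrays had been scaled to one level, with trimmed means between 1000.14 and 1000.16, and median signals of 152 to 210. Of the 8 epithelial markers EPCAM and KRT18 were bright in both lines, with EPCAM at 28158 to 35438 in HCT116 and 3544 to 4139 in RKO. VIL1 was dim in both lines (19.3 to 253 in HCT116 and 71.1 to 198 in RKO). In RKO KRT8 had 270 to 520 and CLDN7 had 9.60 to 543. CDH1 (3.90 to 117), CLDN4 (15.1 to 60.8) and KRT19 (4.95 to 18.2) were dim in RKO, with signals near or under 100 in every array. Some arrays went against their labels or stood apart. Of 238 probe sets raised by 5-aza-dC in HCT116, 30.7% were at least 3-fold over the RKO control in the array labelled PJ-34 but 1.26% in that labelled PJ-34/5-aza-dC, where the other 3 RKO arrays with 5-aza-dC gave 23.9% to 30.3% and those labelled TSA and PJ-34/TSA gave 1.26% and 2.94%. Results that rest on those 2 RKO arrays are given with and without them. In HCT116, the array labelled PJ-34/5-aza-dC moved with the TSA arrays. Of 1284 probe sets raised at least 1.5-fold by TSA in the other 7 HCT116 arrays, 87.1% lay above control in it, with a median log2 ratio of 0.47, and of 2429 lowered ones 88.1% lay below, with a median of -0.76. The same reading gave medians of 0.11 and -0.18 in the 5-aza-dC array, and 0.05 and -0.04 in the PJ-34 array.

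NF-Y boxes and the homology region are known cell cycle elements of mitotic promoters, so the 120 bases before the start are shown for the 4 members with the smallest p for TSA in HCT116 that had a RefSeq promoter (GRCh38.p14, all on the plus strand): CCNB1, chr5:69167030-69167149; PLK1, chr16:23678769-23678888; CDC20, chr1:43358861-43358980; and CENPA, chr2:26785936-26786055. Capitals mark CCAAT, the NF-Y box, and TTTGAA or TTCGAA, the cell cycle homology motif, searched on both strands.
CCNB1: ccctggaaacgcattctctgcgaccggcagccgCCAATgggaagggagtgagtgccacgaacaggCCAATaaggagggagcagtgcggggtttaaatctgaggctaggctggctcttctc
PLK1: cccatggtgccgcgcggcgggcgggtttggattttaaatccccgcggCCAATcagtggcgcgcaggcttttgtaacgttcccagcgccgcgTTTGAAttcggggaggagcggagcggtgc
CDC20: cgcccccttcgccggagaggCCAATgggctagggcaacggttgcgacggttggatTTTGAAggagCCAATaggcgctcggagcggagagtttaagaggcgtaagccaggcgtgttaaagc
CENPA: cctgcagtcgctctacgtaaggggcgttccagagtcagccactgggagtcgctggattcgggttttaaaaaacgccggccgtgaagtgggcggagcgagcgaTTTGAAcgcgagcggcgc

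RefSeq promoters of 300 bases (250 before to 50 after the start) were found for 34 of the 40 genes. TTTGAA or TTCGAA was in 24 of them (70.6%), against 4539 of 27305 promoters in all (16.6%). CCAAT was in 26 (76.5%), against 35.7% of all promoters, and was there at least 2 times in 16 (47.1%), against 11.3%. Both motifs were in 20 (58.8%), against 6.58%. HMMR, which codes for a spindle-binding protein, had 5 CCAAT matches, of which those at -69 and -66 overlap on opposite strands. CCNB2 and CENPF had 4 each, and CDC25C, CENPE, KIF2C and TACC3 had neither motif in this window. CENPA had 2 CCAAT matches, at -205 and -130, both before the 120 bases shown. A match is a description of letters only. No DNA methylation or protein binding was measured here.

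**Figure D1:**
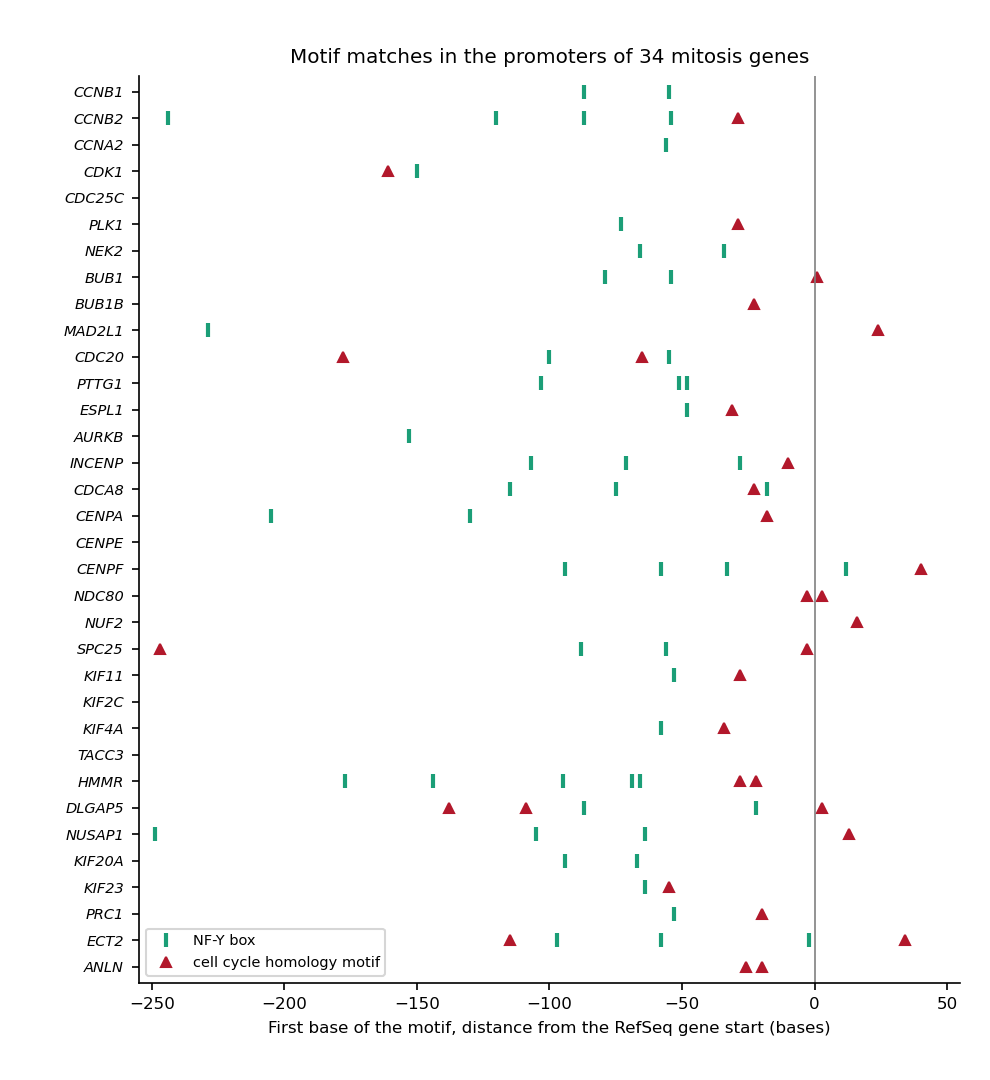
Positions of motif matches in the promoters of 34 mitosis genes, with the distance from the RefSeq gene start in bases on the x axis and a gene in each line. Bars mark NF-Y boxes (CCAAT matches) and triangles the cell cycle homology motif, and 44 of 54 CCAAT matches lie within the 120 bases before the start. Overlapping CCAAT matches on opposite strands, in HMMR and in PTTG1, count separately.

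TSA raised part of the mitosis genes in HCT116. Cyclin B1 (CCNB1), the mitotic kinases PLK1 and AURKA, the anaphase activator CDC20 and survivin (BIRC5, of the chromosomal passenger complex) were higher with TSA, and CENPA, the histone H3 variant that marks centromeres, was lower. These were 5 genes up and 1 down of 40 at an adjusted p under 0.05, where 12.1% of the 14597 genes tested passed in either direction (5.97% higher and 6.1% lower). The median log2 difference over the 40 genes was 0.28, against -0.03 over all genes, and 28 of 40 were positive.

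CCNB1 had signals of 25064 in the array with all 3 drugs, 22962 with 5-aza-dC/TSA, 21264 with PJ-34/TSA and 23680 with TSA alone, against 20192 with PJ-34/5-aza-dC, 14099 with 5-aza-dC, 14388 with PJ-34 and 14656 in control. In the same order of arrays, CDC20 had 16112, 14036, 14131 and 16910 with TSA, against 13815, 9086, 9725 and 8914 without it. In both genes the lowest array with TSA was above the highest without it, and the PJ-34/5-aza-dC array was the highest of those without TSA. PLK1, which acts on centrosomes and on CDK1 activation, had 4480, 4085, 3708 and 4427 with TSA, against 2794, 2395, 2949 and 2672 without it, also with no overlap. AURKA, the kinase of spindle poles, had 9680, 8482, 8285 and 9800 with TSA, against 8200, 6163, 6325 and 6373 without it. For AURKA the gap between the nearest arrays was small. BIRC5 had 14106, 12568, 12608 and 14567 with TSA, against 12856, 8930, 8659 and 9333 without it, so the PJ-34/5-aza-dC array overlapped the TSA arrays. CENPA had 1462, 1561, 1679 and 1341 with TSA, against 2150, 2439, 1888 and 2114 without it, with no overlap.

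On the log2 scale, PLK1 rose by 0.63 ± 0.12 (SE, adjusted p = 0.00762), CDC20 by 0.58 ± 0.13 (adjusted p = 0.014) and CCNB1 by 0.57 ± 0.11 (adjusted p = 0.00753). BIRC5 rose by 0.45 ± 0.12 (adjusted p = 0.0355) and AURKA by 0.43 ± 0.12 (adjusted p = 0.0346). CENPA fell by 0.51 ± 0.14 (adjusted p = 0.0405). Each of the 6 moved the same way in all 4 pairs of arrays that differ in TSA alone. Over the whole list all 4 pairs were up in 20 of 40 genes, against 17.6% of all genes, and down in 3, against 19.7% of all genes. The signals with and without TSA did not overlap in 12 of 40, against 16.2% of all genes, of which 12.1% were called. The number called rested on single arrays. It was 2 without the control array, 2 without PJ-34, 0 without 5-aza-dC and 3 without all 3 drugs, and it was 16 without PJ-34/5-aza-dC, the array that moved with the TSA arrays. CCNB1 and PLK1 lost the call only without the 5-aza-dC array (adjusted p of 0.0561 and 0.0535). CDC20 lost it when any 1 of 3 arrays was left out, and AURKA, BIRC5 and CENPA each when any 1 of 6 was. All 6 calls also ended without the filter on dim probe sets or without the intensity trend in limma, and centring each array gave 17 up and 0 down (median 0.43). The call for CENPA ended after that centring, after quantile normalization and in a fit of all 16 arrays, that for BIRC5 after quantile normalization and with its second brightest probe set, and that for AURKA with its second brightest probe set.

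**Figure D2:**
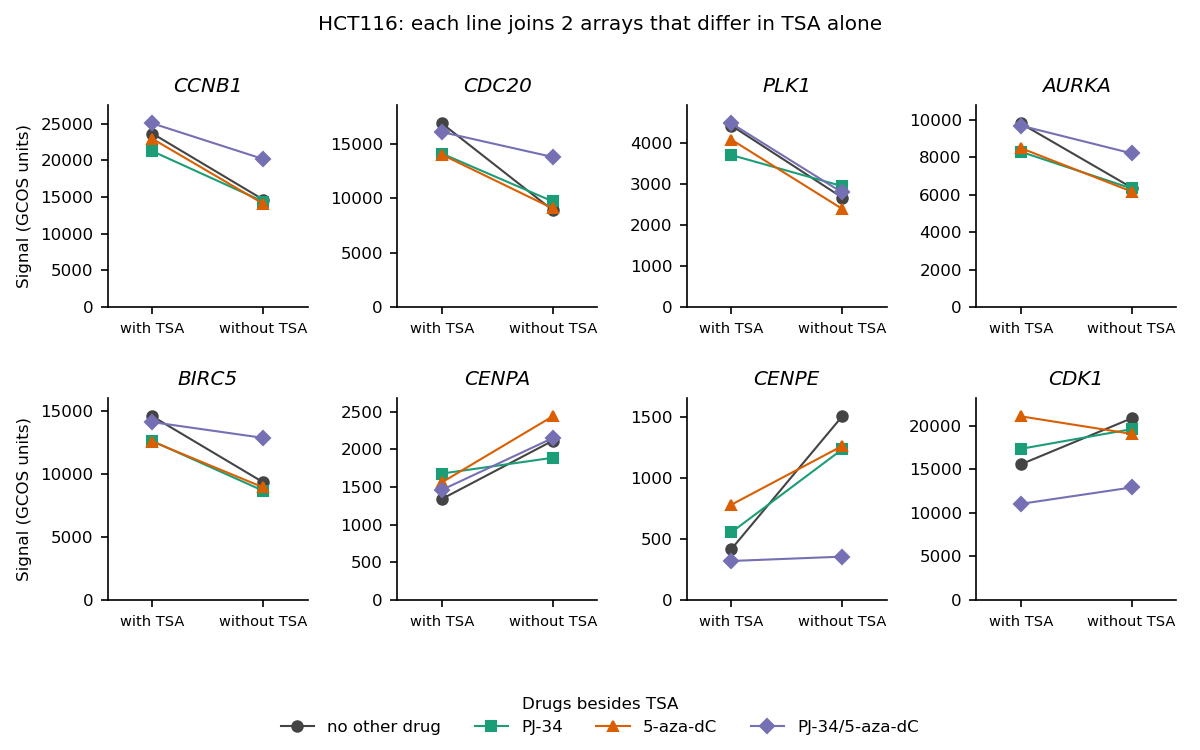
Signals of 8 mitosis genes in the HCT116 arrays (y axis, units of the GCOS software), with TSA at left and without TSA at right; each line joins 2 arrays that differ in TSA alone. CCNB1, CDC20, PLK1, AURKA and BIRC5 are higher with TSA in 4 of 4 pairs. In the PJ-34/5-aza-dC array CCNB1 (20192) and CENPE (355) lie near the TSA arrays. For CDK1 (12933 in that array) the TSA arrays hold both the lowest and the highest signal.

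By role, TSA in HCT116 gave 1 gene up of 5 for mitotic entry, 2 up of 3 kinases of centrosome and spindle, and 1 up of 4 each for anaphase and for the passenger complex. None of the 5 checkpoint genes passed. BUB1, the checkpoint kinase, had 4494, 4539, 4223 and 4179 with TSA, against 4262, 3717, 3390 and 3006 without it, with overlap (0.29 ± 0.11, adjusted p = 0.126), and BUB1B, BUB3 and MAD2L1 had log2 differences of 0.28 to 0.32. None of the 8 spindle genes or the 5 cytokinesis genes passed. TACC3, a spindle protein recruited by AURKA, had a log2 difference of 0.44 ± 0.16 (adjusted p = 0.106), and its signals were 2821, 1956, 2245 and 2456 with TSA, against 2402, 1711, 1845 and 1197 without it. The 6 kinetochore genes had a median of -0.31, with CENPA the 1 that passed. Their lowest value was that of CENPE, the kinesin that carries chromosomes to the spindle equator, at -0.96 ± 0.33 (adjusted p = 0.0874). CENPE had 320, 781, 555 and 416 with TSA, against 355, 1263, 1235 and 1506 without it. Without the PJ-34/5-aza-dC array, CENPE passed at -1.37 (adjusted p = 0.00386), as did 14 genes in the higher direction, CCNA2, UBE2C, PTTG1, TPX2 and PRC1 among them.

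CDK1, the partner kinase of cyclin B, had 11046, 21106, 17368 and 15583 with TSA, against 12933, 19091, 19634 and 20881 without it (-0.17 ± 0.15, adjusted p = 0.528). Its 3 lowest arrays were those with all 3 drugs, PJ-34/5-aza-dC and TSA alone. The kinetochore genes CENPE, CENPF and NUF2, the spindle protein HMMR and ECT2, which activates RhoA for the contractile ring, had the same 3 lowest arrays. HMMR, for example, had 4775, 9302, 7350 and 5698 with TSA, against 5215, 6159, 7311 and 8749 without it. These were 6 of the 40 genes, against 6.12% of all genes, and the order was noticed after the values were seen. In 13 of the 40 genes, CCNB1, CDC20, AURKA, BIRC5, TPX2 and PRC1 among them, the 3 lowest arrays were PJ-34, 5-aza-dC and control, against 12.1% of all genes. CDK1's other probe sets with bright signals also had negative TSA differences (-0.43 and -0.23).

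AURKB, the kinase of the passenger complex, had 3622, 3382, 2983 and 3256 with TSA, against 3858, 2999, 4130 and 3533 without it in HCT116 (-0.13 ± 0.13, adjusted p = 0.599), with full overlap. Of its partners BIRC5 passed at 0.45, and CDCA8 did not (0.31 ± 0.13, adjusted p = 0.154). The difference between AURKB and its partners was not tested. CCNB2, the second B-type cyclin, had a difference of 0.02 ± 0.10 beside the 0.57 of CCNB1.

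Other genes of cell division were read from further lists under the same test. Of 48 DNA replication genes 19 rose with TSA in HCT116 and 0 fell (median 0.39), among them PCNA, the sliding clamp (0.76 ± 0.11), and FEN1, the flap nuclease (0.95 ± 0.13). Of 27 further kinetochore genes 6 rose and 1 fell, with ZWINT at 0.59 ± 0.10 and CENPO at 1.00 ± 0.21. Among 26 further spindle and cytokinesis genes 1 rose (FAM83D, 0.70 ± 0.11) and 2 fell, including the kinesin KIF18A (-0.57 ± 0.14). Condensin and cohesin had 2 up and 2 down of 19, the anaphase-promoting complex 1 up of 16, and the entry regulators 1 down of 13, the CDK1 phosphatase CDC25B (-0.60 ± 0.10). Of 8 CDK inhibitors and p53 repressors of the cycle 2 rose and 1 fell, with CDKN1A (p21) at 0.98 ± 0.11 and CDKN1C (p57) at -1.33 ± 0.16. Marker genes also moved: of 8 epithelial markers 2 rose and 1 fell, and of 4 fibroblast and vessel markers that passed the filter COL1A1 fell by 1.37 ± 0.22, while none of 3 blood-lineage markers passed the test. The ratio of 3' to 5' GAPDH signal, a measure of RNA integrity, was 0.86 to 0.90 with TSA, against 0.83 to 0.89 without it. For ACTB this ratio was 1.42 to 1.58 with TSA, against 1.51 to 1.61 without it. Their part in the mitosis gene differences was not tested.

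**Figure D3:**
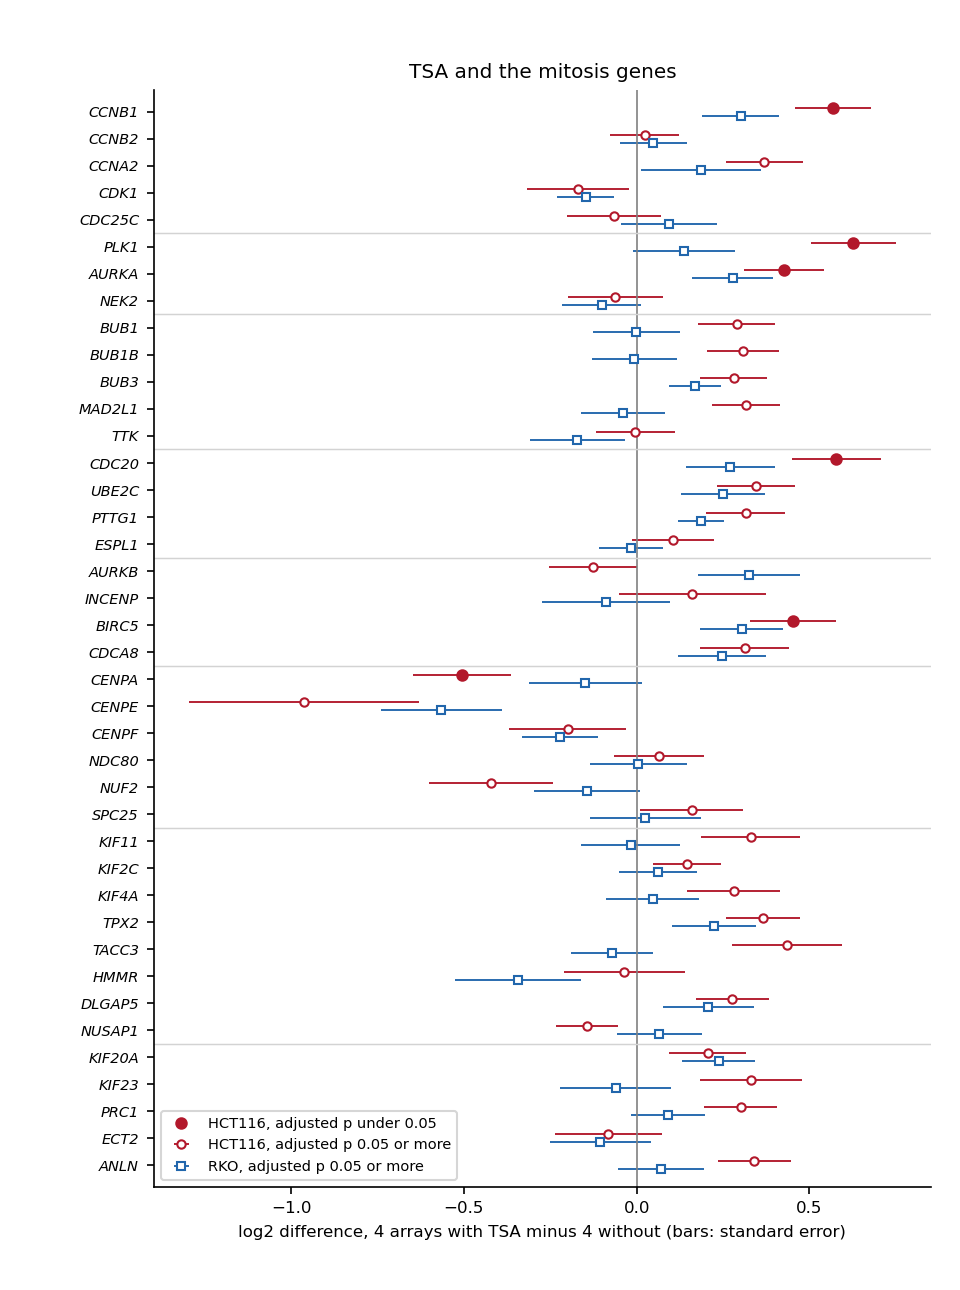
Log2 difference between the 4 arrays with TSA and the 4 without it for each of the 40 mitosis genes, with standard errors, HCT116 as circles and RKO as squares. The 6 filled circles (PLK1, CDC20, CCNB1, BIRC5, AURKA and CENPA) had adjusted p under 0.05 in HCT116, and no RKO point did.

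In RKO, TSA changed none of the 40 genes at an adjusted p under 0.05 by limma, where 1 of 13587 genes passed (0.00736%). At an unadjusted p under 0.05 there were 7 higher and 1 lower members, beside 884 higher and 729 lower of the 13587 genes. The median over the members was 0.05, against 0.01 over all genes, and 23 were positive. Single arrays turned the median: it was -0.08 with 5 members at an unadjusted p under 0.05 without the array labelled PJ-34, and 0.18 with 16 members without that labelled PJ-34/5-aza-dC. It was also under 0 without 5-aza-dC or without TSA, and the count was 2 without 5-aza-dC or PJ-34/TSA, 4 without TSA and 5 without all 3 drugs. With the RKO arrays in the order used for HCT116, CCNB1 had 18726, 18012, 21140 and 21309 with TSA, against 19104, 13923, 13902 and 17848 without it (0.30 ± 0.11, adjusted p = 0.304). PTTG1 (securin, the inhibitor of separase) had 28396, 28620, 26994 and 27705 with TSA, against 24824, 23834, 23919 and 25578 without it (0.19 ± 0.07, adjusted p = 0.285), with no overlap. CENPE had 737, 1154, 1103 and 981 with TSA, against 1714, 1305, 1251 and 1577 without it (-0.57 ± 0.17, adjusted p = 0.238), again with no overlap and at the same sign as in HCT116. Over the whole list the RKO signals with and without TSA did not overlap in 3 of 40 genes, against 7.13% of all genes. BIRC5 had 7285, 6488, 7714 and 8385 with TSA, against 7007, 5630, 4995 and 6676 without it (0.30 ± 0.12, adjusted p = 0.342).

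The rest of the genes followed throughout gave overlapping signals in RKO. PLK1 had 3054, 2730, 3373 and 3618 with TSA, against 3294, 2718, 2225 and 3495 without it (0.14 ± 0.15). AURKA had 10954, 10698, 12060 and 12386 with TSA, against 10969, 8171, 8035 and 11255 without it (0.28 ± 0.12). CDC20 had 7599, 8862, 10654 and 10482 with TSA, against 9005, 6708, 6589 and 8904 without it (0.27 ± 0.13). All 3 had their 2 lowest RKO signals in the arrays labelled PJ-34 and 5-aza-dC. AURKB had 4699, 4103, 5412 and 5630 with TSA, against 4764, 3456, 3155 and 4593 without it (0.32 ± 0.15). BUB1 had 4084, 4406, 4869 and 4749 with TSA, against 5250, 3893, 3859 and 5284 without it (-0.00 ± 0.12). CDK1 had 13450, 15480, 12268 and 16780 with TSA, against 16525, 16713, 14370 and 16270 without it (-0.15 ± 0.08). Both arrays whose labels are in doubt belong to the 4 without TSA, so an exchange of their labels would leave every RKO mean difference for TSA as it is. Without those 2 arrays again no member passed, where 0.0237% of genes passed as higher, with 10 higher and 1 lower at an unadjusted p under 0.05 and a median of 0.05.

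The TSA differences of the lines were then compared in 1 fit of all 16 arrays. No member differed between HCT116 and RKO in its TSA difference at an adjusted p under 0.05, where 0.433% of 16627 genes did, and 3 were positive and 1 negative at an unadjusted p under 0.05. The HCT116 minus RKO difference was 0.49 ± 0.19 for PLK1 (adjusted p = 0.3), 0.51 ± 0.20 for TACC3 (adjusted p = 0.306), 0.31 ± 0.15 for BUB1B (adjusted p = 0.418) and -0.45 ± 0.20 for AURKB (adjusted p = 0.375). The median over the members was 0.13, with 31 of 40 positive, against -0.05 over all genes. That the 6 genes passed in HCT116 and not in RKO is therefore no tested difference between the lines.

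5-aza-dC in HCT116 called none of the 40 mitosis genes, where 1.13% of all genes passed. At that share a list of 40 without a call does not stand out. PTTG1 was the 1 member with an unadjusted p under 0.05, beside 1151 higher and 729 lower genes. It had 34208, 35849, 36973 and 26240 in the arrays with 5-aza-dC (all 3 drugs, then 5-aza-dC with TSA, with PJ-34 and alone), against 30807, 34320, 24275 and 22983 in the matching arrays without it (0.25 ± 0.11, adjusted p = 0.455). It was higher in 4 of 4 pairs, but the groups overlapped. BUB1 was also higher in 4 of 4 pairs (0.21 ± 0.11). Over the whole list 4 of 40 genes were higher in all 4 pairs, against 10.8% of all genes. KIF23, a kinesin of the central spindle, had -0.27 ± 0.15 and MAD2L1, the MAD2 checkpoint protein, -0.17 ± 0.10. The median over the 40 genes was 0.02, as it was over all genes. The count of members at an unadjusted p under 0.05 was 12 without the TSA array (smallest adjusted p = 0.0541), 6 without 5-aza-dC/TSA and 0 or 1 without any other array.

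PJ-34 in HCT116 gave no called member and no called gene at all (0% of 14597). At an unadjusted p under 0.05 there were 1 higher and 2 lower members, beside 244 higher and 266 lower genes. CDK1 had 11046, 17368, 12933 and 19634 with PJ-34 (all 3 drugs, PJ-34/TSA, PJ-34/5-aza-dC and PJ-34 alone), against 21106, 15583, 19091 and 20881 in the matching arrays without it (-0.36 ± 0.15, adjusted p = 0.981). CENPE had 320, 555, 355 and 1235 with PJ-34, against 781, 416, 1263 and 1506 without it (-0.75 ± 0.33). TACC3 had 2821, 2245, 2402 and 1845 with PJ-34, against 1956, 2456, 1711 and 1197 without it (0.38 ± 0.16). In all 3 genes the groups overlapped. TTK, the MPS1 checkpoint kinase, was lower in 4 of 4 pairs (-0.24 ± 0.12). Over the whole list 5 of 40 genes were lower in all 4 pairs, against 4.56% of all genes. Without the TSA array 12 members had an unadjusted p under 0.05 (smallest adjusted p = 0.137), and without any other array 0 to 5 had.

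**Figure D4:**
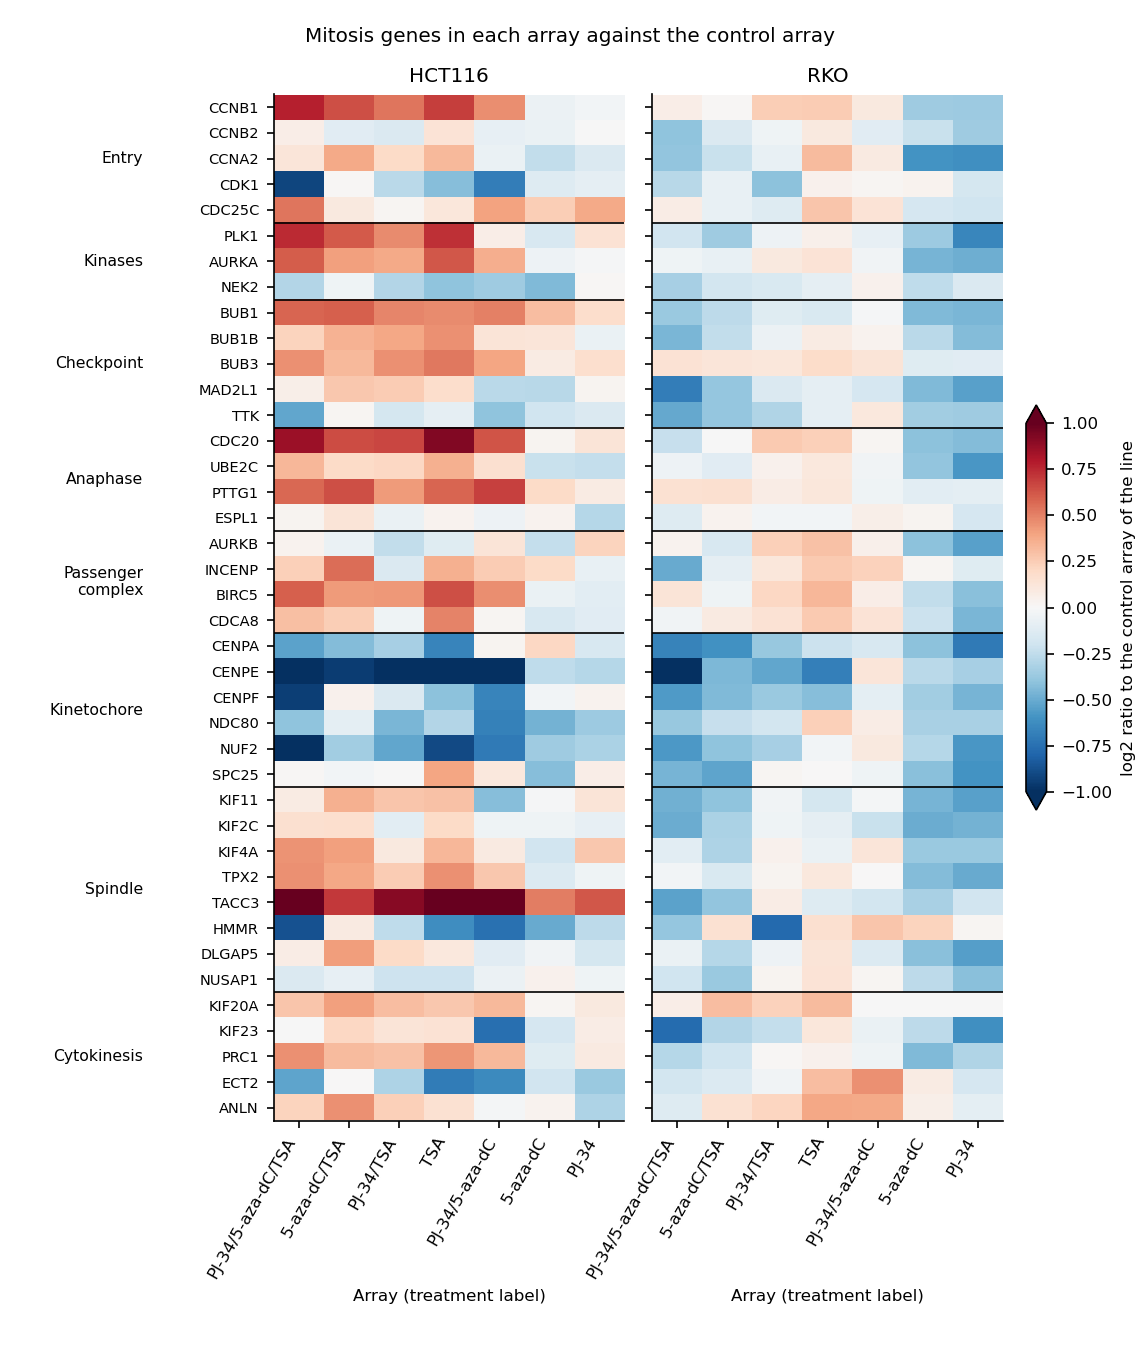
Log2 ratio of each mitosis gene to the control array of its line (colour, from -1 in blue to 1 in red), in 7 treated arrays of HCT116 at left and 7 of RKO at right, with the genes ordered by role. In RKO the columns labelled PJ-34 and 5-aza-dC are mostly blue (39 and 34 of 40 genes below control), and the column labelled PJ-34/5-aza-dC is pale (17 below).

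Against the RKO control, 39 of 40 mitosis genes were lower in the array labelled PJ-34 (median log2 ratio -0.42) and 34 of 40 in that labelled 5-aza-dC (-0.33). With 5-aza-dC/TSA 32 were lower (-0.19), and with all 3 drugs 33 were lower (-0.28). With TSA, PJ-34/TSA and the label PJ-34/5-aza-dC, 13, 22 and 17 of 40 were lower, at medians of 0.11, -0.04 and 0.02. Over all genes the medians of these arrays lay between -0.02 and 0.05. In HCT116 the medians of the members were -0.07 with 5-aza-dC, -0.03 with PJ-34, 0.02 with PJ-34/5-aza-dC and between 0.11 and 0.26 in the 4 arrays with TSA.

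As labelled, 5-aza-dC in RKO called none of the 40 genes, where 0% of 13587 genes passed. At an unadjusted p under 0.05, 1 member was lower, beside 505 higher and 288 lower genes. The median over the members was -0.09, with 32 of 40 negative. With only the array labelled PJ-34 left out, 19 members had an unadjusted p under 0.05, and with only that labelled PJ-34/5-aza-dC left out 18 had, at a median of -0.22 each time and with none called. Without the 2 doubted arrays, 5 members passed and all were lower, where 1.23% of 12658 genes passed as lower and 1.62% as higher. There the median was -0.27, against 0.03 over all genes, 37 of 40 were negative, and 26 were lower at an unadjusted p under 0.05. CCNA2 (cyclin A2) had 4627, 5205 and 4001 with 5-aza-dC (all 3 drugs, 5-aza-dC/TSA and 5-aza-dC alone), against 5756, 7556 and 6069 without it (PJ-34/TSA, TSA and control). It fell by 0.48 ± 0.09 (adjusted p = 0.0144), and the groups did not overlap. MAD2L1 had 10015, 12383 and 11904 with 5-aza-dC, against 14617, 15211 and 16172 without it, and fell by 0.43 ± 0.08 (adjusted p = 0.0108). SPC25, of the outer kinetochore NDC80 complex, had 2295, 2195 and 2362 with 5-aza-dC, against 3207, 3179 and 3163 without it, and fell by 0.48 ± 0.10 (adjusted p = 0.0326). Neither gene overlapped between the groups. KIF2C, a kinesin that takes microtubules apart at centromeres, had 5944, 6740 and 5931 with 5-aza-dC, against 8127, 7873 and 8382 without it, and fell by 0.39 ± 0.09 (adjusted p = 0.0343). CDC20 had 7599, 8862 and 6708 with 5-aza-dC, against 10654, 10482 and 8904 without it, and fell by 0.38 ± 0.08 (adjusted p = 0.0307).

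The arrays in doubt held the rest of the values for these genes. In the doubted arrays CCNA2 had 6471 (PJ-34/5-aza-dC by its label) and 3973 (PJ-34 by its label). MAD2L1 had 14379 and 11107, and SPC25 3074 and 2088, in the same order. The array labelled PJ-34 was the lowest of the 8 RKO arrays for CCNA2 and SPC25, and next to the lowest for MAD2L1. TACC3, the member with the smallest p under the labels as given, had 1789, 1976, 2289 and 2067 with 5-aza-dC, against 2736, 2370, 2272 and 2594 in the matching arrays without it (-0.30 ± 0.12, adjusted p = 0.882).

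PJ-34 in RKO gave no called member and no called gene (0%), with 1 member lower at an unadjusted p under 0.05, beside 199 higher and 160 lower genes. Without the arrays in doubt no member passed either, with 6 lower at an unadjusted p under 0.05. Without the array labelled PJ-34 alone the median was 0.05, and without that labelled PJ-34/5-aza-dC alone it was -0.19 with 12 members at an unadjusted p under 0.05. CDK1 was lower in 4 of 4 pairs, with 13450, 12268, 16525 and 14370 with PJ-34 (all 3 drugs, PJ-34/TSA, PJ-34/5-aza-dC and PJ-34 alone), against 15480, 16780, 16713 and 16270 without it (-0.21 ± 0.08). HMMR had 736, 561, 1167 and 976 with PJ-34, against 1067, 1075, 1123 and 961 without it (-0.35 ± 0.18). The groups overlapped in both genes. Over the whole list 2 of 40 genes were lower in all 4 pairs, against 4.29% of all genes. No member differed between the lines in its 5-aza-dC difference, where 0.0722% of genes did, or in its PJ-34 difference (0%). TACC3 had the smallest p for 5-aza-dC (0.52 ± 0.20, adjusted p = 0.614), 1 member was positive at an unadjusted p under 0.05 for 5-aza-dC, and none was for PJ-34.

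No pair of drugs gave a called interaction in any mitosis gene, nor in any other gene (0% each). At an unadjusted p under 0.05, 3 members were negative for 5-aza-dC with TSA, none passed for PJ-34 with TSA, and 10 were positive for PJ-34 with 5-aza-dC. In the last the median was 0.19 with 31 of 40 positive, against a median of 0.00 over all genes. BIRC5 (0.51 ± 0.13), UBE2C, the ubiquitin enzyme of the anaphase-promoting complex (0.50 ± 0.14), TPX2, the activator of AURKA (0.47 ± 0.14), and AURKA (0.46 ± 0.14) had the smallest p values, each with an adjusted p of 0.713. The median over the members was largest in 1 corner of the design. Without TSA in RKO, the combined array minus PJ-34 minus 5-aza-dC plus control was positive in 40 of 40 genes (median 0.74), and all of it used the 2 arrays whose labels are in doubt. It was positive in 26 of 40 without TSA in HCT116 (median 0.08), in 22 with TSA in RKO (0.06) and in 20 with TSA in HCT116 (-0.01). BIRC5, UBE2C, TPX2 and AURKA were positive in each of these corners. Without TSA in HCT116, which uses neither doubted array, they had 0.63, 0.63, 0.45 and 0.42. Without the 2 doubted arrays the fitted median over the members was 0.03, with 8 members at an unadjusted p under 0.05 and none called. For 5-aza-dC with TSA and for PJ-34 with TSA, 2 and 1 members had an unadjusted p under 0.05 there.

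More mitosis genes differed between the lines than were called for any drug. The same held over all genes, of which 12.1% were called for TSA in HCT116. Of 40 mitosis genes, 16 were higher and 9 lower in HCT116 than in RKO over their 8 arrays each, where 50.6% of 16627 genes differed (26.6% higher and 24% lower). The median was 0.12, against 0.05 over all genes. HMMR stood far from the rest. Its signal had a lowest, median and highest value of 4775, 6735 and 9302 in HCT116, against 561, 1021 and 1167 in RKO (2.83 ± 0.13, adjusted p = 6.95e-11).

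KIF20A, a kinesin of the central spindle, had 3812, 4607 and 5055 in HCT116, against 1960, 2019 and 2456 in RKO (1.05 ± 0.07, adjusted p = 1.11e-08). NEK2, a kinase of centrosome separation, had 3302, 3663 and 4532 in HCT116, against 1923, 2188 and 2498 in RKO (0.80 ± 0.09). TTK had 3342, 4286 and 4853 in HCT116, against 2008, 2290 and 3081 in RKO (0.79 ± 0.10). The arrays of the lines did not overlap in these 3 genes. Over the whole list they did not overlap in 10 of 40. The share of all genes without such overlap was not computed, so this count has no background beside it. BIRC5 had 8659, 12588 and 14567 in HCT116, against 4995, 6842 and 8385 in RKO (0.78 ± 0.07). PRC1, which bundles microtubules of the central spindle, had 9490, 12731 and 14147 in HCT116, against 5943, 7462 and 8326 in RKO (0.73 ± 0.07). These also did not overlap, although the BIRC5 ranges nearly met.

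Lower in HCT116 were KIF11, the kinesin that separates spindle poles, with 1276, 1838 and 2190 in HCT116, against 2975, 3552 and 4322 in RKO (-0.99 ± 0.11, adjusted p = 2.86e-06), and ESPL1 (separase), with 2158, 2653 and 2874 in HCT116, against 3483, 3877 and 4071 in RKO (-0.57 ± 0.07). Neither gene overlapped. CENPE had 320, 668 and 1506 in HCT116, against 737, 1202 and 1714 in RKO (-0.80 ± 0.20). INCENP, the scaffold of the passenger complex, had 446, 572 and 727 in HCT116, against 592, 846 and 1006 in RKO (-0.59 ± 0.14). NUF2 had 1242, 2242 and 3028 in HCT116, against 2331, 2820 and 3737 in RKO (-0.49 ± 0.14). AURKA had 6163, 8243 and 9800 in HCT116, against 8035, 10962 and 12386 in RKO (-0.42 ± 0.07). In these 4 genes the lines overlapped, and the passenger complex was split, with BIRC5 higher and INCENP and AURKB (-0.35 ± 0.10) lower in HCT116.

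**Figure D5:**
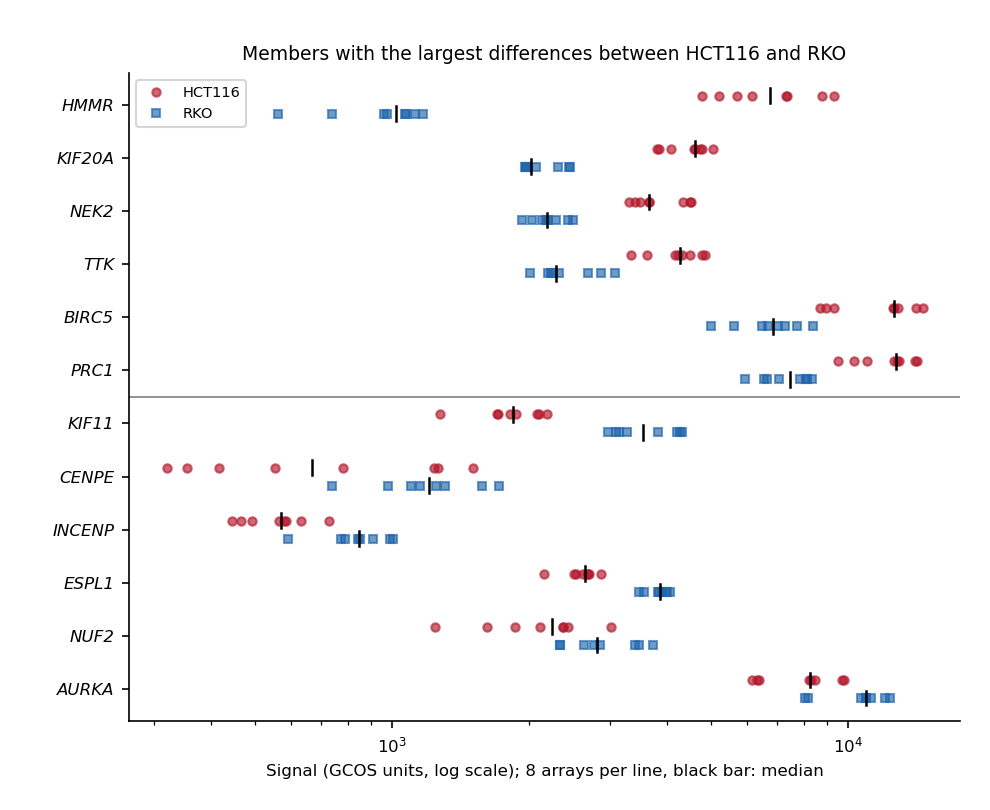
Signals of 12 mitosis genes in 8 HCT116 arrays (circles) and 8 RKO arrays (squares) on a log axis, with the median as a black bar; genes above the grey line were higher in HCT116 and those below it lower. HMMR shows the widest gap, with medians of 6735 in HCT116 and 1021 in RKO.

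Among the genes followed throughout, CDC20 was higher in HCT116 (0.56 ± 0.08, adjusted p = 2.69e-05), with 8914, 13926 and 16910 in HCT116, against 6589, 8883 and 10654 in RKO. CCNB1 (0.10 ± 0.07), CDK1 (0.15 ± 0.09), PLK1 (0.15 ± 0.09) and BUB1 (-0.20 ± 0.09) did not pass. With its second brightest probe set CCNB1 passed at 0.35 ± 0.10 (adjusted p = 0.00759 by limma). CDK1 passed as higher when the HCT116 TSA, RKO TSA or RKO PJ-34/5-aza-dC array was left out. BUB1 passed as lower when the RKO PJ-34, RKO 5-aza-dC or RKO TSA array was left out. Leaving out each of the 16 arrays in turn, 19 of the 25 calls held each time, and CCNB2, BUB3, UBE2C, PTTG1, CENPA and NDC80 lost theirs at least once. There were 13 higher and 6 lower without the filter, 11 higher and 6 lower without the trend, and 11 higher and 10 lower after centring. Without the 2 doubted RKO arrays there were 14 higher and 10 lower, and CCNB2, BUB3 and PTTG1 lost their calls. AURKB and NUF2 lost their calls without the filter and without the trend. With the second brightest probe set there were 14 higher and 11 lower, and CCNB2, CDC25C, BUB3 and NUSAP1 were no longer higher in HCT116 at an adjusted p under 0.05. Of the further lists, the entry regulators had 5 higher and 8 lower of 13 (CDC25B 1.69 ± 0.09 and CKS1B 0.68 ± 0.06), condensin and cohesin 4 higher and 10 lower of 19 (SMC2 -1.33 ± 0.12 and SMC4 -1.16 ± 0.13), and the anaphase-promoting complex 8 higher and 2 lower of 16 (ANAPC16 1.21 ± 0.06 and CDC26 -1.08 ± 0.07). Further kinetochore genes had 5 higher and 12 lower of 27 (CENPW -0.61 ± 0.06 and MIS12 -0.69 ± 0.08), further spindle and cytokinesis genes 10 higher and 8 lower of 26 (KIF18A 1.71 ± 0.12 and PIMREG 1.19 ± 0.09), DNA replication genes 12 higher and 15 lower of 48, and the CDK inhibitors 7 higher and 1 lower of 8. Of 8 epithelial markers 7 were higher in HCT116, at a median of 5.29 over the list. The GAPDH 3' to 5' ratio was 0.83 to 0.90 in HCT116, against 0.89 to 1.02 in RKO. The ACTB ratio overlapped between the lines and leaned the other way, at 1.42 to 1.61 in HCT116 and 1.39 to 1.57 in RKO. The labels do not say how the cultures of each line were grouped, so line and any handling that differed between the lines cannot be told apart.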

How the data were processed

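The submitters' processing notes name GCOS, and the deposited table holds the signal intensity that the authors computed for each probe set, with every array scaled to a common trimmed mean. The version and further settings are not given in the sources used here. The table held 54675 probe sets, of which 62 control probe sets were left out of the fits. In the platform annotation 41091 of the others carried 1 gene symbol, 1801 several and 11721 none. Every sample column was used. Signals under 50 were set to 50 and log2 transformed, probe sets with 100 or more in at least 4 arrays were kept (35373 in HCT116, 33862 in RKO, 42119 over both), and limma 3.58.1 in R 4.3.3 (lmFit, eBayes with a trend) fitted the 3 drugs per line, or both lines with line differences and pairwise interactions. P values were adjusted by Benjamini-Hochberg over all kept probe sets, 13 comparisons in all, at a threshold of 0.05. Fits were tested on simulated data. Scan dates were not used here. The number of arrays limits the precision.

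Values were given for up to 6 members per direction past the threshold with the largest change, for the smallest p up to 4 members where fewer passed, and always for CCNB1, CDK1, PLK1, AURKA, AURKB, CDC20 and BUB1. Further lists gave up to 2 genes each by smallest p among those called. Other genes were named after their values were seen. The 40 members and all lists were chosen with earlier results of these data known. Alternatives were a floor of 20, no filter, quantile normalization, centring, no trend, the second brightest probe set, 1 fit of 16 arrays, each array left out, and the 2 doubted RKO arrays left out. Counts at an unadjusted p under 0.05 from these alternatives, from interactions and from line differences in a drug effect cover members only. They are not set against all genes here. Promoter sequences were taken from RefSeq (GRCh38.p14).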

Additional observations from a re-analysis of the deposited data

How the results depend on the processing

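No paired analysis was possible because every label carries replicate number 1, so no block on replicate numbers could be fitted. Arrays that differ in 1 drug alone were set in pairs as counts only. The 6 calls for TSA in HCT116 became 17, all higher, when each array was centred on the median of its kept probe sets. That centring moved the median TSA difference over all kept probe sets by 0.15, to 0.08 from -0.07. They became 0 without the filter or without the trend in limma (20 and 8 members at an unadjusted p under 0.05). Leaving out 1 array at a time gave 0 to 16 calls. They were 4 after quantile normalization, 7 with the second brightest probe set and 5 in a fit of all 16 arrays. The calls for 5-aza-dC in RKO were 5, all lower, without the 2 RKO arrays whose labels are in doubt. The 25 differences between the lines ranged from 21 to 27 over the arrays left out, and were 19 without the filter and 17 without the trend. With the second brightest probe set a pair of called line differences changed sign, CDC25C (-0.13) and BUB3 (-0.0789), as did the uncalled values of HMMR for PJ-34 in RKO (0.0106), AURKB for TSA in RKO (-0.55) and AURKB for the line difference under TSA (1.497). After centring, AURKB for TSA in HCT116 (0.0218) and BUB1 for TSA in RKO (0.11) changed sign, and BUB1 also did without both doubted RKO arrays (0.0124). Over the single RKO arrays left out, PLK1 for TSA ranged from -0.0536 to 0.27 and BUB1 from -0.13 to 0.14. The cause was not tested. For the called members, those named by rule and those always followed under TSA and between the lines, 1760 values were refitted, of which 1627 kept sign and side of the threshold, 110 lost the call, 10 gained one and 13 changed sign. With 1 array per combination the number of arrays limits the precision.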

Other observations

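Several members were read by more than 1 probe set, 20 of the 40 genes, with 37 further probe sets of which 34 passed the filter in HCT116. For TSA in HCT116, 22 of those had the sign of the brightest probe set and 12 the opposite sign. BUB3, which carries BUB1 and BUB1B to kinetochores, was divided: the brightest probe set had 0.28 ± 0.10 and the second 0.42 ± 0.10 (adjusted p = 0.0155 by limma), while the next in brightness had -0.17 ± 0.10 and -0.37 ± 0.12. For the line comparison, ECT2 had 0.08 ± 0.13 at its brightest probe set and 0.83 ± 0.12 at the second, and CENPF had -0.07 ± 0.11 and -0.71 ± 0.15. Which transcript forms these probe sets read was not tested.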
